A study of Mus musculus with 18 samples.

Results

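Arp2/3 complex and actin capping genes were followed in satellite cells, the stem cells of skeletal muscle, before and after injury of the tibialis anterior muscle. The members were 10 named genes: Actr2, Actr3, Arpc1a, Arpc1b, Arpc2, Arpc3, Arpc4 and Arpc5, which encode subunits of the Arp2/3 complex, and Capza1 and Capza2, which encode alpha subunits of actin capping protein. All probe sets that the array annotation assigns to a single member symbol were taken, which gave 14 of the 45101 probe sets and 7 of the 10 genes. Actr3 had 3 probe sets, Arpc1a had 1, and Arpc2, Arpc4, Arpc5, Capza1 and Capza2 had 2 each. Actr2 and Arpc3 were not matched to a probe set in the annotation used here. The 2 probe sets of Arpc1b were shared with the pseudogene symbol Gm5637, so no value is given for that gene.

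Cells were sorted by syndecan-3 immunoreactivity from female mice, aged 3 to 6 months by the labels and 3 months by the study's account of the sort, and RNA from 5000 cell equivalents was amplified in successive T7 rounds and hybridized to Affymetrix mouse arrays. Wild type (WT) mice were C57Bl/6 x DBA2 and mice lacking syndecan-4 (Sdc4-/-) were C57Bl/6, so genotype and strain background cannot be told apart. Muscles were either uninjured or collected 12 h or 48 h after injection of 1.2% barium chloride. Each of the 6 groups had 3 arrays, of which WT uninjured replicate 3 was left out, leaving 17. The study removed 1 WT uninjured array because it repeatedly clustered with the WT 12 h arrays, and did not number it in the text. Replicate 3 was assumed here, since the study's pictures show the other 2. The removal thus rested on expression values, and it can widen the differences between uninjured and 12 h WT arrays. The labels do not say whether replicates came from separate animals, so p-values measure only the spread between arrays.

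The Arp2/3 complex binds the side of an existing actin filament and starts a new filament from there, and so builds the branched networks that push lamellipodia forward and move endosomes. Capping protein, a heterodimer of an alpha and a beta subunit, seats itself on the fast-growing barbed end and stops elongation, which keeps the branches short. Networks of this kind drive cell migration, which satellite cells undertake when they leave their niche and move along the fibre.

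Several facts of the arrays bear on every value given here. The deleted gene Sdc4 has 2 probe sets, and WT cells were clearly above Sdc4-/- cells at 48 h alone. The set 1417654_at lay between 2.41 and 2.60 on all 9 Sdc4-/- arrays, between 2.36 and 3.64 on the WT uninjured and 12 h arrays, and between 5.59 and 7.62 at 48 h in WT. The set 1448793_a_at ran from 4.09 to 6.53 in Sdc4-/- and from 6.88 to 8.11 in WT cells at 48 h, and averaged 4.71 in Sdc4-/- against 4.03 in WT cells at 12 h. Pax7 and Myod1, which mark satellite cells and committed myoblasts, were low, with group means of at most 4.87 (Pax7, WT uninjured) and 2.62 (Myod1, Sdc4-/- uninjured). The 18 hybridization-control probe sets, whose spiked RNA is added at a fixed amount, averaged 13.95 ± 0.38 (SD, n = 3) in WT at 12 h against 8.40 ± 0.76 (SD, n = 2) in uninjured WT cells, and probe sets above 5 numbered 3440 and 7416 on average. WT 12 h replicate 2 stood apart even within its group, with Actb, the beta-actin gene, at 3.98. Beta-actin has control probe sets towards the 3′ and the 5′ end of its transcript. In WT cells they averaged 11.87 and 5.70 when uninjured, 8.05 and 4.52 at 12 h, and 12.44 and 8.16 at 48 h. In Sdc4-/- cells they averaged 12.50 and 7.17, 12.69 and 5.61, and 13.24 and 6.91. The part of RNA integrity in the results was not tested. In bulk samples, fewer cells of a type and less RNA per cell cannot be told apart.

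Promoter sequence is shown for the 4 genes whose leading probe set fell in WT cells at 12 h (Actr3, Arpc5, Capza1, Capza2) and for the 2 other measured genes whose window holds the ETS core (Arpc1a, Arpc4). Each line gives the 100 bases before the annotated start (RefSeq, GRCm38.p6), written 5′ to 3′ on the gene's strand, with matches to CCGGAAG on either strand in capitals.
Actr3, chr1:125435728-125435827, minus strand: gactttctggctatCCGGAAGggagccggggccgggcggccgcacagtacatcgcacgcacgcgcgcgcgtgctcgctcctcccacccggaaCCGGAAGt
Arpc5, chr1:152766442-152766541, plus strand: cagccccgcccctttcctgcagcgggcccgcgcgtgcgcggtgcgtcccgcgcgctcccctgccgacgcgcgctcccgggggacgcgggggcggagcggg
Capza1, chr3:104864506-104864605, minus strand: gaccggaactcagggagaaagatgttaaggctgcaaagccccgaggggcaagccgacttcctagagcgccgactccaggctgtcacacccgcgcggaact
Capza2, chr6:17636910-17637009, plus strand: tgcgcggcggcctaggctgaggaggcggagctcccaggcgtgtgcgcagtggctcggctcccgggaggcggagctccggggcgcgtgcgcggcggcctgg
Arpc1a, chr5:145083769-145083868, plus strand: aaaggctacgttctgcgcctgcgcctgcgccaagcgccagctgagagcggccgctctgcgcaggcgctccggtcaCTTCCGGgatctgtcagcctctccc
Arpc4, chr6:113378013-113378112, plus strand: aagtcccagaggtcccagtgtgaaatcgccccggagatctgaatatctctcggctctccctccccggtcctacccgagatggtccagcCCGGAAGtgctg
The motifs were chosen after the expression values were seen, and a match is a description of the letters. Over the 250 bases before the start, all 10 members had a window. CCGGAAG, the core bound by ETS-family transcription factors, occurred in 5 of the 10 windows (Actr2, Actr3, Arpc1a, Arpc3, Arpc4) and in 6.91% of all 32851 windows. GGGCGG, the GC box, occurred in 5 of the 10 (Actr2, Actr3, Arpc1b, Arpc2, Arpc5) and in 32.7% of all windows. CCAAT occurred in 2 (Actr2, Arpc5) and in 33.8% of all, TATAAA in 0 and in 12.4%, and the CArG box of serum response factor in 1 (Arpc4) and in 1.47%. Both strands were searched for every motif. The 25 matches in the member windows count the CArG box of Arpc4 on each strand at the same bases. No pair from different motifs shared a base.

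Values are log2 GCRMA expression values, in which background lies at about 2 to 3, and a difference of 1 is a doubling. Levels are compared for the same probe set and never between probe sets. Each gene is shown by its probe set with the highest mean over the 17 arrays unless another is named. Differences were tested with limma over all 45101 probe sets, and calls were made below an adjusted p of 0.05. Of the 14 member probe sets 9 had a mean of at least 6. The other 5, which include the only probe set of Arpc1a and both of Arpc4, had means under 4.5, near background, where small differences have no reliable order.

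**Figure D1:**
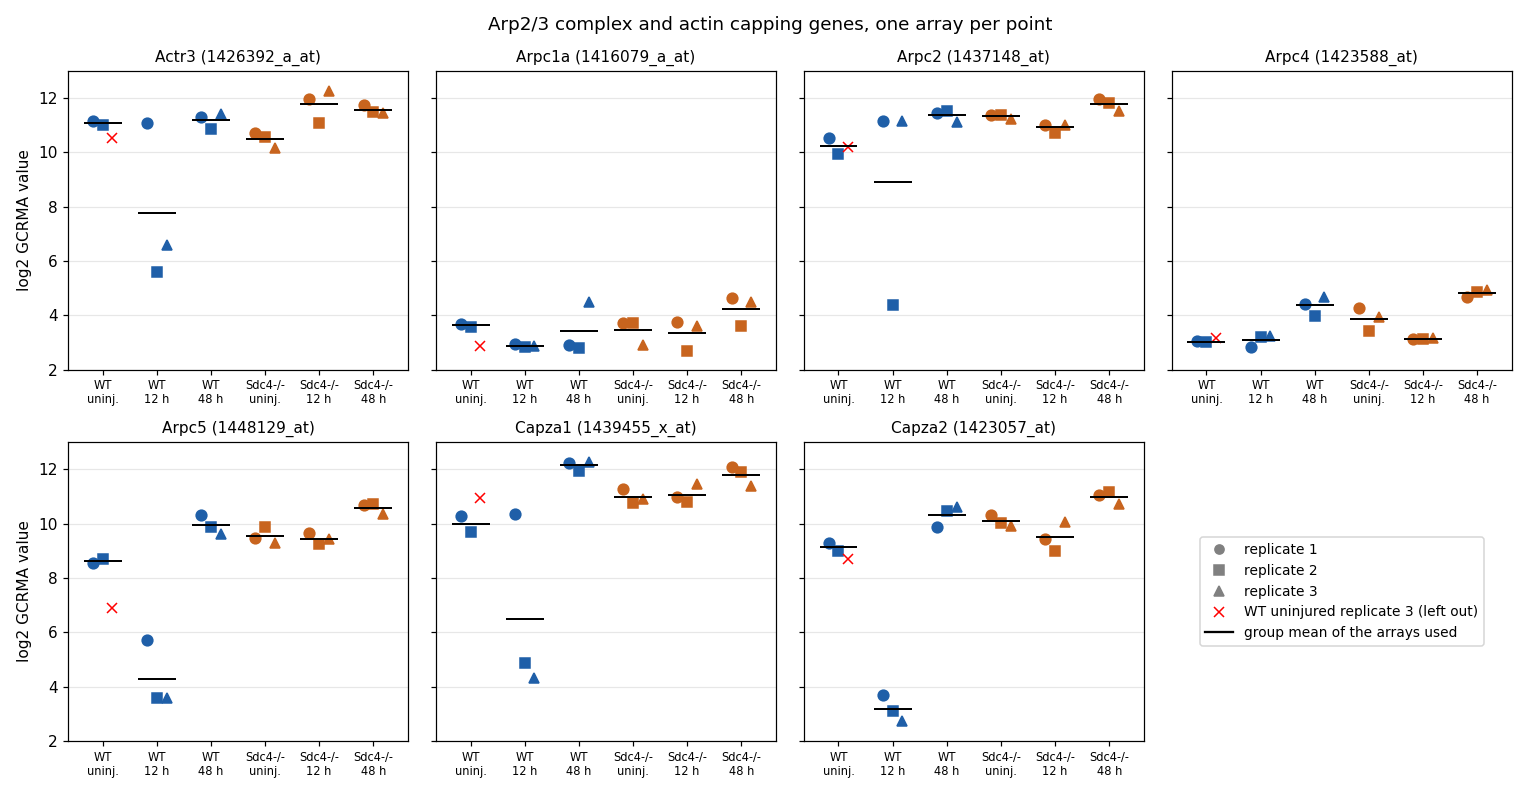
log2 GCRMA value (vertical axis) of the leading probe set of each of the 7 measured genes in the 6 groups, with 1 point per array, the replicate as symbol, the group mean as a line and the array that was left out as a red cross. Capza2 and Arpc5 are low on all 3 WT 12 h arrays, while Actr3 and Capza1 are low on replicates 2 and 3 and Arpc2 on replicate 2 alone.

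In WT cells 12 h after injury, transcripts of Capza2, Arpc5, Actr3 and Capza1 fell, and those of Arpc2 and Arpc4 did not pass the test on their leading probe sets. In that comparison 14.2% of all probe sets, and 56.1% of those with a mean of at least 6, were called lower. None of the 14 probe sets was called at 12 h in Sdc4-/- cells, where 6.41% of all probe sets were. By 48 h no member probe set was called lower than in uninjured cells. At that time 4 of 14 rose in WT cells (5.35% of all probe sets did), a count that was 1 with all 18 arrays and 0 after the shift by bright probe sets described below, and 3 of 14 rose in Sdc4-/- cells (2.18% of all). The counts of 4 and 3 each include the leading set of Arpc4, which is near background.

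Capza2, an alpha subunit of capping protein, gave the largest difference among the members. Its probe set 1423057_at read 9.29 and 9.0 on the uninjured WT arrays, 3.70, 3.1 and 2.74 at 12 h, and 9.89, 10.47 and 10.61 at 48 h. The 12 h arrays thus lay near background and apart from both other times. The 12 h difference was -5.97 ± 0.33 (SE, limma adjusted p = 5e-07). The same probe set in Sdc4-/- cells read 10.33, 10.03 and 9.91 when uninjured, 9.44, 9.0 and 10.06 at 12 h and 11.05, 11.14 and 10.73 at 48 h. The 12 h arrays overlapped those of uninjured Sdc4-/- cells, and the difference of -0.59 had a 95% interval of -1.23 to 0.05. The second probe set of Capza2, 1423058_at, read 7.35 and 7.86, then 4.41, 4.91 and 4.90 at 12 h, and 8.65, 9.11 and 9.14 at 48 h in WT cells. It fell by 2.87 on the log2 scale (SE 0.30, limma adjusted p = 3.72e-05), so both probe sets gave the same direction with unlike sizes.

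Capza1 encodes the other broadly expressed alpha subunit. Its brighter probe set 1439455_x_at, whose suffix marks probes that can match other transcripts, read 10.27 and 9.69 in uninjured WT cells, 10.35, 4.86 and 4.32 at 12 h and 12.24, 11.94 and 12.26 at 48 h. Replicate 1 at 12 h was thus as high as the uninjured arrays, and the difference of -3.48 ± 1.26 (SE) had a limma adjusted p of 0.0464. Leaving out any array other than WT 12 h replicate 1 ended this call, with adjusted p up to 0.184. The probe set 1452038_at had no such split: it read 6.95 and 6.96, then 2.73, 3.05 and 2.73, then 8.73, 7.66 and 8.51. It fell by 4.12 on the log2 scale (SE 0.36, limma adjusted p = 1.16e-05) at 12 h. On WT 12 h replicate 1, then, the 2 probe sets of Capza1 disagreed, 1 of them level with uninjured cells and the other at background.

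Arpc5, the small subunit that sits at the edge of the complex and adjusts its activity, read 8.55 and 8.68 in uninjured WT cells, 5.74, 3.59 and 3.58 at 12 h and 10.32, 9.87 and 9.61 at 48 h (1448129_at). The 12 h arrays lay below all others, with a difference of -4.32 ± 0.51 (SE, limma adjusted p = 7.05e-05). Sdc4-/- cells read 9.46, 9.88 and 9.28 when uninjured, 9.65, 9.24 and 9.43 at 12 h and 10.69, 10.71 and 10.34 at 48 h. Their 12 h difference was -0.10 (95% interval -1.08 to 0.89). The second Arpc5 probe set, 1444568_at, stayed between 2.57 and 3.06 on every array used. Its 12 h difference of 0.35 (limma adjusted p = 0.0044) passed the test within the background range.

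Actr3 encodes Arp3, which with Arp2 forms the seed of the new filament. Its brightest probe set 1426392_a_at read 11.15 and 10.996 in uninjured WT cells, 11.07, 5.61 and 6.59 at 12 h and 11.31, 10.87 and 11.42 at 48 h. Replicate 1 was level with the uninjured arrays and the other 2 were far below, which gave -3.31 ± 1.11 (SE, limma adjusted p = 0.0343). The call was lost when either uninjured WT array, or WT 12 h replicate 2 or 3, was omitted, with adjusted p up to 0.134. The probe set 1434968_a_at read 10.15 and 10.13, then 7.06, 5.63 and 7.10 at 12 h, then 10.87, 10.49 and 11.19. Here all 3 arrays at 12 h were lower, with a difference of -3.54 ± 0.46 (SE, limma adjusted p = 0.000136). The probe set 1452051_at read 8.57 and 9.03, then 6.51, 3.08 and 4.42, then 9.72, 9.44 and 10.16, with a 12 h difference of -4.13 (limma adjusted p = 0.000787).

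Actr3 in Sdc4-/- cells was on the higher side at 12 h. On 1426392_a_at the arrays read 10.71, 10.57 and 10.17 when uninjured, 11.95, 11.09 and 12.26 at 12 h and 11.74, 11.48 and 11.44 at 48 h. The 12 h arrays lay above the uninjured ones, yet the difference of 1.29 (95% interval -0.88 to 3.45, limma adjusted p = 0.508) did not pass. The other 2 probe sets gave 0.77 and 0.82, which did not pass either.

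Arpc2, a core subunit that holds the complex against the mother filament, read 10.53 and 9.94 in uninjured WT cells, 11.15, 4.39 and 11.16 at 12 h and 11.45, 11.51 and 11.11 at 48 h (1437148_at). A single array decided the mean. With all 17 arrays the difference was -1.33 (95% interval -4.50 to 1.83, limma adjusted p = 0.49). Without WT 12 h replicate 2 it was 0.92 in the other direction (limma adjusted p = 0.0060). Sdc4-/- cells held between 10.72 and 11.98 at all times. The second Arpc2 probe set, 1442295_at, was near background.

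Arpc4, the partner of Arpc2 in that core, was near background on both probe sets. The set 1423588_at read 3.04 and 3.03 in uninjured WT cells, 2.85, 3.20 and 3.26 at 12 h and 4.44, 3.99 and 4.67 at 48 h, so that only the 48 h arrays stood apart. In Sdc4-/- cells it read 4.27, 3.43 and 3.94, then 3.13, 3.13 and 3.16, then 4.67, 4.88 and 4.92, with the highest values again at 48 h. The set 1423589_at gave 0.85 at 12 h in WT cells (limma adjusted p = 0.0485), a call that was lost when any of 11 arrays was left out. Arpc1a, a WD-repeat subunit that contacts nucleation promoting factors, stayed between 2.70 and 4.63 on its probe set and was called in no comparison.

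**Figure D2:**
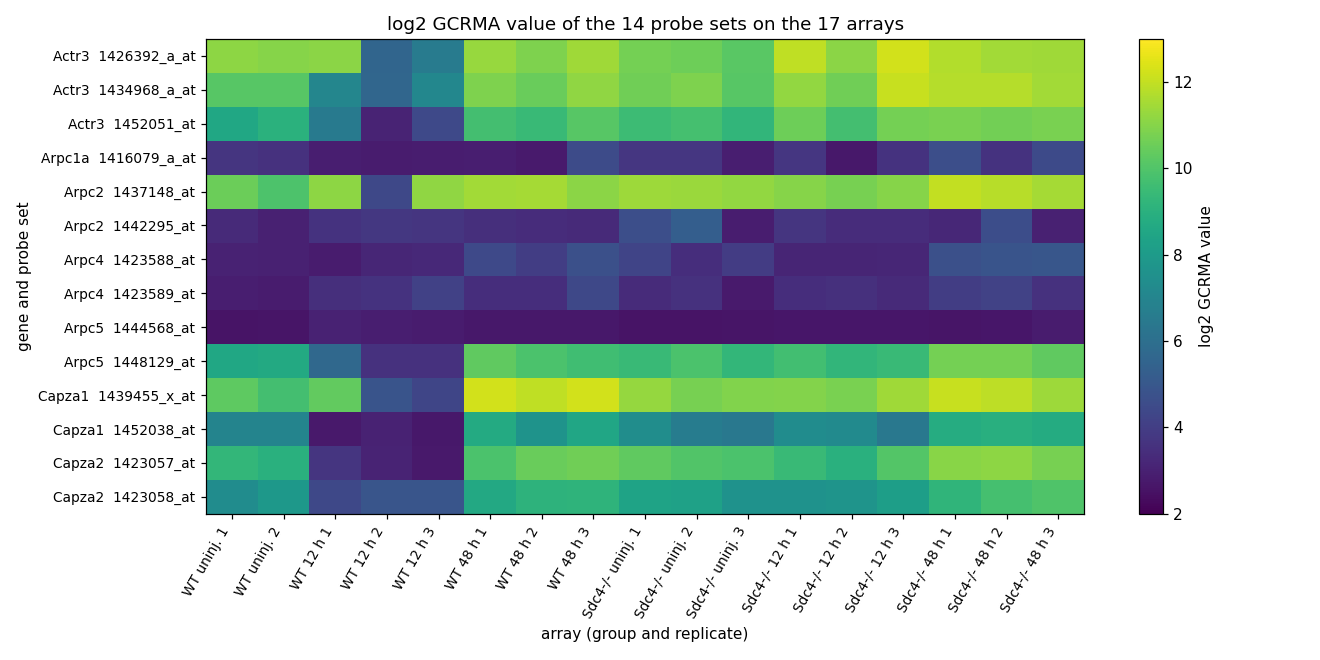
log2 GCRMA value, as colour, of all 14 probe sets (rows) on the 17 arrays (columns, in group order). The 3 WT 12 h columns are dark for Capza2, Arpc5 and the second Capza1 probe set, whereas the first column of the 3 is bright for 1 probe set each of Actr3, Arpc2 and Capza1, and the 5 near-background probe sets are dark throughout.

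Counted over the 14 probe sets, 8 were lower and 2 higher in WT cells at 12 h, where 37.5% of all probe sets were called, 14.2% as lower and 23.3% as higher. Most probe sets are near background, so the nearer comparison is with the 3424 probe sets whose mean was at least 6. Of these 58% were called and 56.1% were lower, against 8 of the 9 member probe sets with such a mean, all 8 lower. These 9 probe sets stand for 5 genes, of which 4 were called lower on their leading sets. The median difference was -3.54 over the 9 member probe sets and -2.58 over the 3424 probe sets. The fall of the members thus stood beside a fall of most bright probe sets on these arrays. Over all probe sets the median difference was 0.15. The bright sets were chosen by their mean over the arrays used, most of which were not WT 12 h arrays. Such a choice can favour sets that are low in WT cells at 12 h alone, members included. Its part in the fall of the bright probe sets, and in the shift based on them, was not tested. After each array was shifted by the mean of those bright probe sets, which moved this comparison by -2.48, Capza2 1423057_at still differed by -3.49, Arpc5 by -1.84, Capza1 1452038_at by -1.64 and 2 probe sets of Actr3 by -1.06 and -1.65, all called. Under the same shift the leading probe sets of Actr3 (-0.84) and Capza1 (-1.0) and the second of Capza2 (-0.39) were not called, and the split of called members became 5 higher and 5 lower, the 5 higher ones being the near-background probe sets.

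**Figure D3:**
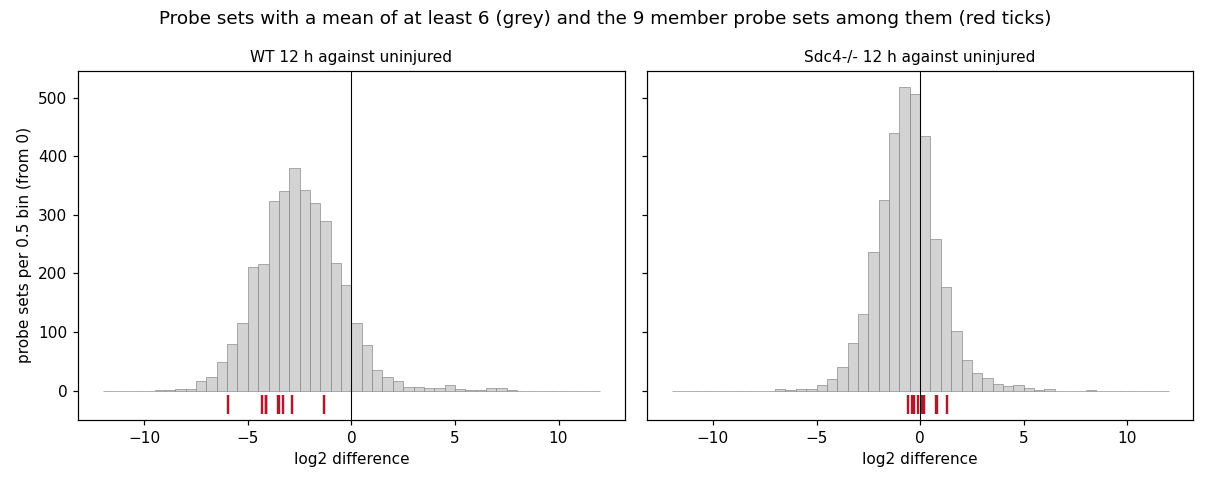
Number of probe sets per 0.5 bin of the 12 h log2 difference (grey bars, vertical axis from 0) among the 3424 with a mean of at least 6, in WT (left) and Sdc4-/- cells (right), with the 9 member probe sets of such a mean as red ticks under the axis. In WT the distribution has a median of -2.58 and the 9 members lie between -5.97 and -1.33, while in Sdc4-/- cells the median is -0.61 and the members lie around 0.

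In Sdc4-/- cells 0 of the 14 probe sets were called at 12 h by limma, where 6.41% of all probe sets and 14.3% of the bright ones were. Without the adjustment 1 would have passed 0.05, Arpc4 1423588_at (difference -0.74, limma adjusted p = 0.0543). The share of all probe sets that would pass without it was not counted. With arrays aligned at the 75th percentile 2 were called, both higher, Actr3 1434968_a_at at 1.11 and the near-background set of Arpc5 at 0.42. The median over the 9 brighter member probe sets was 0.09, against -0.61 over the 3424 probe sets.

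Whether the 12 h change differed between genotypes was tested directly. It was called for 6 of the 14 probe sets, all with the more negative change in WT cells, against 11.1% of all probe sets (4.37% in that direction) and 24.4% of those with a mean of at least 6 (23% in that direction). Capza2 gave -5.38 ± 0.44 (SE, limma adjusted p = 3.97e-05) and -2.58 on its second set (adjusted p = 0.00255). Capza1 1452038_at gave -4.29 (adjusted p = 0.000316), Arpc5 -4.22 ± 0.68 (SE, adjusted p = 0.00284), and Actr3 -4.31 and -4.95 on its other 2 sets (adjusted p = 0.00153 and 0.00618). The leading sets of Actr3 (-4.60, adjusted p = 0.0695) and Capza1 (-3.57, adjusted p = 0.199) did not pass. At 12 h itself, 8 probe sets were higher in Sdc4-/- than in WT cells and 1 near-background set was lower, where 17.4% of all probe sets (5.47% as higher) and 47.8% of those with a mean of at least 6 (46.7% as higher) were called. Capza2 was 6.32 and 3.08 higher, Arpc5 5.14, Actr3 4.01, 4.70 and 5.66, and Capza1 4.55 and 4.15. The calls of the leading sets of Actr3 and Capza1 were lost without WT 12 h replicate 2 or 3, with adjusted p up to 0.0608.

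**Figure D4:**
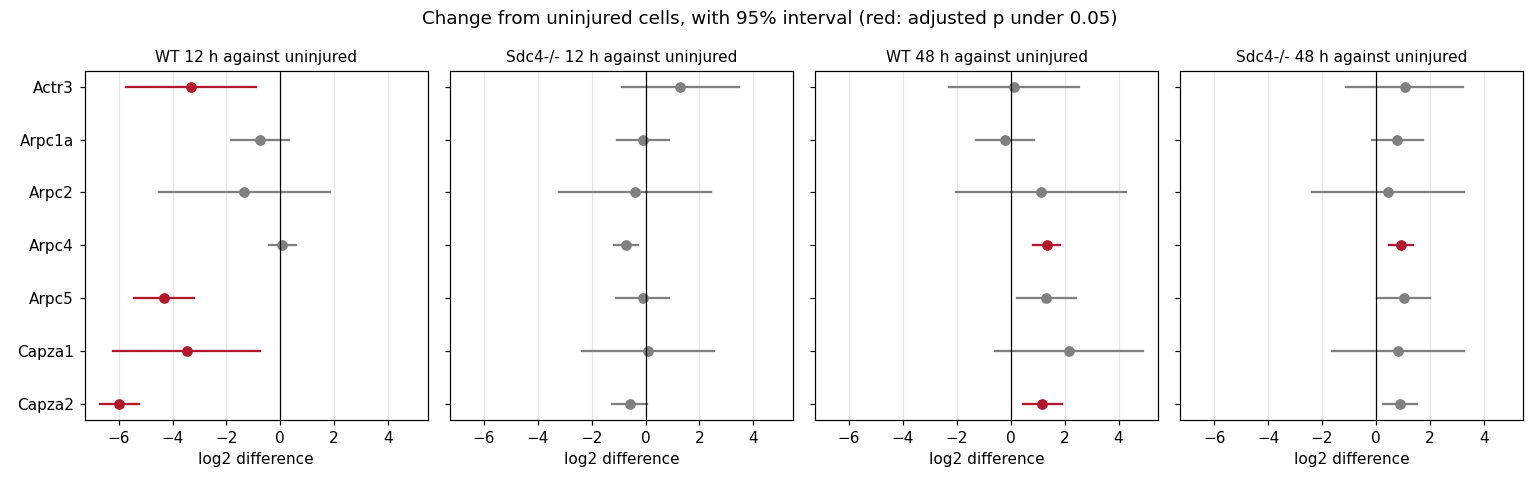
log2 difference from uninjured cells (horizontal axis) with its 95% interval for the leading probe set of each gene, at 12 h and 48 h in WT and Sdc4-/- cells, in red where the limma adjusted p was under 0.05. At 12 h in WT cells Actr3, Arpc5, Capza1 and Capza2 lie below 0, at 12 h in Sdc4-/- cells no gene is red, and at 48 h the red points are Arpc4 and Capza2 in WT and Arpc4 in Sdc4-/- cells.

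At 48 h the capping protein alpha subunits were above their uninjured level in both genotypes, on 3 of their 4 probe sets in WT and 2 of 4 in Sdc4-/- cells. In WT cells the called sets were Capza2 (1.18 and 1.36, limma adjusted p = 0.0367 and 0.0122), Capza1 1452038_at (1.35, 0.0278) and Arpc4 1423588_at (1.33, 0.00297). The Arpc4 set is near background in both genotypes. These were 4 of 14 probe sets, beside 12.5% of all (5.35% higher) and 16.4% of those with a mean of at least 6 (9.49% higher). Capza2 1423057_at and Capza1 1452038_at each lost the call without any of 4 arrays. Omitting 1 array, the count was 1 (WT uninjured replicate 1), 2 (uninjured replicate 2, or 48 h replicate 3) or 6 (WT 12 h replicate 1), and with all 18 arrays it was 1. It was 0 after the shift by bright probe sets. In Sdc4-/- cells the called sets were Capza1 1452038_at, which read 7.41, 6.62 and 6.40 when uninjured and 8.82, 8.92 and 8.78 at 48 h (difference 2.03, limma adjusted p = 0.00292), Capza2 1423058_at (1.54, 0.00601) and Arpc4 1423588_at (0.94, 0.0206). They were 3 of 14, beside 4.49% of all probe sets (2.18% higher) and 6.98% of those with a mean of at least 6 (5.52% higher).

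The differences at 48 h that missed the threshold were mostly positive as well. In each genotype 11 of 14 probe sets had every 48 h array above every uninjured array, beside 50.7% of all probe sets in WT, where 2 arrays meet 3, and 18.6% in Sdc4-/- cells. Capza1 1439455_x_at was 2.16 higher in WT cells with an interval of -0.58 to 4.90, and Arpc5 was 1.32 higher (0.21 to 2.42, limma adjusted p = 0.114). For the 48 h change, a genotype difference was called for 0 of 14 probe sets, against 4.08% of all. Its 95% interval ran from -0.67 to 1.25 for Capza2 and from -1.20 to 1.76 for Arpc5 and none had an unadjusted p under 0.05, which does not show that the changes were alike.

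Between 12 h and 48 h the WT levels of 5 of the 7 genes rose on their leading probe sets, that of Arpc4 near background. Capza2 rose by 7.15 (limma adjusted p = 4.08e-08) and 4.23, Arpc5 by 5.63, Capza1 by 5.64 and 5.47, Actr3 by 3.44, 4.25 and 5.10, and Arpc4 1423588_at by 1.26. With the near-background Arpc5 set, lower by 0.24, these were 10 of 14 called, beside 12.4% of all probe sets (5.74% higher) and 53.7% of those with a mean of at least 6 (52.5% higher). The leading Actr3 set had a limma adjusted p of 0.0409 here and lost its call without any array but WT 12 h replicate 1. Over the same interval 4 of 14 rose in Sdc4-/- cells, beside 5.98% of all (5.28% higher) and 16.8% of those with a mean of at least 6 (15.9% higher). They were Arpc4 1423588_at (1.68), Capza1 1452038_at (1.86) and both sets of Capza2 (1.48 and 1.82).

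Uninjured cells of the genotypes gave 0 of 14 called by limma, beside 3.8% of all, and cells at 48 h gave 0, beside 5.07%. At an unadjusted p under 0.05, 2 sets were higher in uninjured Sdc4-/- cells (Arpc4 1423588_at by 0.84, Capza2 1423057_at by 0.94) and 3 at 48 h (Arpc4 1423588_at by 0.46, Capza2 by 0.65 and 0.67). The share of all probe sets under that unadjusted threshold was not counted, so these numbers are no result about the members. The uninjured count of called sets became 1 when any of 5 arrays was left out. Ordered by group mean, WT 12 h was the lowest group on the leading sets of Actr3, Arpc2, Arpc5, Capza1, Capza2 and Arpc1a. For Actr3, Arpc5, Capza1 and Capza2 the step to the next group passed the test (adjusted p = 0.0465, 7.05e-05, 0.0464 and 5e-07), and no other step between neighbouring groups passed on the leading sets.

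Some of the members varied together across single arrays. Pearson's r between leading sets over the 17 arrays ran from 0.28 (Actr3 with Arpc4) to 0.98 (Arpc5 with Capza2). It was 0.79 to 0.98 among Actr3, Arpc5, Capza1 and Capza2, 0.57 to 0.71 between Arpc2 and these 4, and 0.28 to 0.59 for every pair with Arpc1a or Arpc4. These arrays share the fall of bright probe sets described above, so r is given as a description. Probe sets of the same gene gave 0.95 for Capza2, 0.82 for Capza1, 0.84 to 0.98 for Actr3, 0.47 for Arpc4, 0.03 for Arpc2 and -0.65 for Arpc5, of which the last 3 have 1 or both sets near background. The 8 genes outside the members whose values were most like the mean of the 7 leading sets were Slc25a5, Rab1a, P4hb, Sdcbp, Canx, Btaf1, Cct3 and Anxa2, with r from 0.985 down to 0.976 over the 17 arrays.

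The mean of the 7 leading sets was set beside 2 other measures of the arrays. It was 7.96 ± 0.16 (SD, n = 2), 5.23 ± 1.47 (SD, n = 3) and 8.96 ± 0.20 (SD, n = 3) in WT cells when uninjured, at 12 h and at 48 h, and 8.53 ± 0.20, 8.46 ± 0.32 and 9.39 ± 0.15 (SD, n = 3 each) in Sdc4-/- cells. Its r with the mean of the hybridization controls was -0.61 over the 17 arrays, -0.55 over the 8 WT arrays and -0.13 over the 9 Sdc4-/- arrays. Over the 14 arrays other than WT 12 h it was 0.40, so the negative value over the 17 rests on the WT 12 h arrays. With the control level as a covariate, a setting added after the data were seen, 1 of the 14 sets was called in WT cells at 12 h (Capza2 1423057_at, -7.60) and 5 between genotypes at 12 h. Within WT cells the control level did not overlap between the 3 times, at 7.86 to 8.94, 13.54 to 14.30 and 11.68 to 12.50. The part of the amount of labelled RNA in the result was not tested.

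Transcripts of macrophages and monocytes also fell in WT cells at 12 h and rose by 48 h. Of 15 measured markers 7 were lower in WT cells at 12 h than when uninjured (14.2% of all probe sets, 56.1% of bright ones). In WT cells at 48 h 15 were higher than at 12 h (5.74% of all, 52.5% of bright ones). At 12 h 12 were higher in Sdc4-/- than in WT cells (5.47% of all, 46.7% of bright ones). In Sdc4-/- cells 2 of the 15 were lower at 12 h than when uninjured, and none higher. In that comparison 6.41% of all probe sets and 14.3% of bright ones were called in either direction. Over the 9 brighter member probe sets the median of that difference was 0.09, over the 15 markers -1.60 and over all bright probe sets -0.61. Markers and members were not tested against each other. Their mean lay at 5.71 to 8.82 in uninjured WT cells, at 3.98 to 4.97 at 12 h and at 10.07 to 10.46 at 48 h, and at 9.90 to 10.47, 8.62 to 9.42 and 10.29 to 10.33 in Sdc4-/- cells. Csf1r, the receptor that defines the lineage, averaged 11.44, 2.95 and 12.69 in WT and 14.15, 12.25 and 12.87 in Sdc4-/- cells at the 3 times. Summed over the 15 markers the range was 85.6 to 132 in uninjured WT cells, 59.7 to 74.5 at 12 h and 151 to 157 at 48 h. Leukocytes are rich in Arp2/3 and capping protein, and the part of these cells in the result was not tested. Among markers of other cells, 6 of 9 endothelial, 4 of 7 fibroblast and 4 of 7 pericyte and smooth muscle markers were lower in WT at 12 h. Of the neutrophil markers 2 of 10 were lower, of the satellite cell markers 6 of 14 and of the muscle fibre markers 0 of 8. None of these markers was higher. These shares stand beside 14.2% lower over all probe sets and 56.1% over bright ones.

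**Figure D5:**
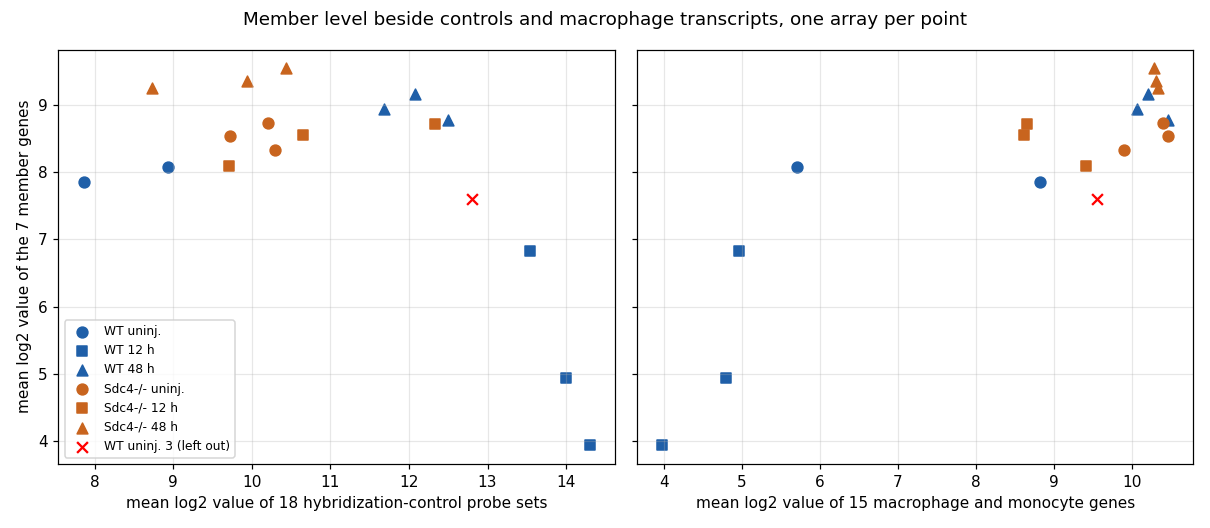
Mean log2 value of the 7 member genes on each array (vertical axis) against the mean of 18 hybridization-control probe sets (left) and of 15 macrophage and monocyte genes (right), with colour for genotype, symbol for time and a red cross for the array left out. The 3 WT 12 h arrays, at member means of 3.94 to 6.83, have the highest controls and the lowest macrophage values, and the other 14 arrays used lie between 7.85 and 9.55.

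Related genes of branched actin were counted over gene lists. The WAVE regulatory complex, which activates Arp2/3, had 4 of 8 measured genes lower and none higher in WT cells at 12 h. Wasf2, which encodes its activating subunit WAVE2, averaged 8.06 ± 0.08 (SD, n = 2), 3.50 ± 0.47 and 6.67 ± 0.84 (SD, n = 3 each) over the WT times and differed by -4.56 at 12 h, and the small subunit gene Brk1 by -4.86. Nckap1 (-3.28) and Abi1 (-2.02) were the others. Among the nucleation promoting factors, the wider class that switches the complex on, 3 of 13 were lower (Wasf2, Wipf1 at -2.73 and Wasl at -2.20).

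The list of genes that bind the barbed end, where capping protein sits, or regulate capping had 7 of 12 lower in WT cells at 12 h, 1 of them Tmod3 of the pointed end. Eps8, which caps and bundles filaments, averaged 9.11, 3.36 and 8.93 over the WT times and differed by -5.75 (limma adjusted p = 5.4e-06). Tmod3 (-3.21), a tropomodulin that caps the pointed end, Cd2ap (-3.61), an adaptor that binds capping protein, and Twf2 (-2.27), a twinfilin, followed. Capzb, the beta subunit without which the alpha subunits do not cap and which is named here after its values were seen, averaged 5.46, 4.67 and 7.04 in WT cells, a 12 h difference of -0.79 that did not pass (limma adjusted p = 0.25). It was 2.37 higher at 48 h than at 12 h and was called there. Of the 3 measured paralogs, Capza3, the testis form, was at background with a called difference of 0.45, and no paralog was lower.

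Genes that oppose Arp2/3 or remove branches had 3 of 9 lower and 1 higher, in which Coro2b (-4.37), Gmfb (-3.94) and Coro7 (-1.28) were lower and Coro1c (1.78) higher. Of the genes for filament turnover 6 of 13 were lower and 1 was higher, among them Tmsb4x, the thymosin that stores monomers, at -3.67, Ssh1 (-5.12), Dstn (-3.79) and Limk2 (0.52). Formins and Ena/VASP proteins, which build unbranched filaments, had 3 of 10 lower (Enah at -5.36, Diaph2 at -3.81, Daam1 at -2.01) and Diaph3 higher by 0.79. Neither cytoplasmic actin gene passed, with Actb at -3.82 (limma adjusted p = 0.058) and Actg1 at -1.14. The shares of these lists stand beside 14.2% lower over all probe sets and 56.1% over bright ones.

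In Sdc4-/- cells at 12 h the WAVE list had 0 lower and 1 higher (Abi1, 1.68), beside 6.41% of all probe sets and 14.3% of bright ones called. The list with the barbed end regulators had 4 of 12 lower, nucleation promoting factors had 1 of 13 lower (Was at -2.88) and formins and Ena/VASP had 2 of 10 higher (Fmnl2 at 2.20 and Vasp at 2.15). Eps8 (-1.98), Cd2ap (-2.96) and Twf2 (-2.53) were lower in these cells too. Of the genes that oppose Arp2/3 or remove branches 3 of 9 were lower, Coro2b (-3.55), Coro7 (-2.54) and Coro1b (-1.42), and none of the 13 filament turnover genes, 3 paralogs or 2 cytoplasmic actins was called.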

How the data were processed

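The authors hybridized amplified RNA to arrays, read intensities with GCOS and normalized them by GCRMA (tools as named in the submitters' processing notes, versions not given in the sources used here). The deposited log2 values of 45101 probe sets were used as they stand, with no detection calls. The members, gene lists, comparisons and alternatives were chosen with earlier results of these data known. Probe sets were named through the array annotation, in which 34958 have 1 symbol, 932 several and 9211 none. WT uninjured replicate 3 was left out. The 6 groups of 17 arrays were fitted together (functions lmFit and eBayes of limma 3.58.1, R 4.3.3, 11 residual and 1.2 prior degrees of freedom) with Benjamini-Hochberg adjustment over all probe sets, and the script was tested on simulated data. Differences between genotypes are Sdc4-/- minus WT, and the difference in the change is WT minus Sdc4-/-. For the counts over gene lists each gene is represented by its probe set of highest mean. From each related list up to 4 called genes with the smallest adjusted p in WT cells at 12 h are named, or the 2 of highest mean where none is called, and the other comparisons name further called genes after their values were seen. The 8 most similar genes are those with the highest Pearson r. The number of arrays limits the precision. The alternatives were all 18 arrays, only the compared groups, eBayes with trend and robust settings, the study's threshold, quantile normalization, both array shifts, a floor on the mean, the replicate block, the control level as covariate and each array left out. Promoter windows came from RefSeq (GRCm38.p6).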

Additional observations from a re-analysis of the deposited data

Results flagged for a closer look

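The 12 h change differed between the genotypes on the leading probe sets of 2 genes by the test of the difference itself, given as WT minus Sdc4-/-. Arpc5 gave -4.22 (limma adjusted p = 0.00284), being lower on 3 of 3 WT arrays than on either uninjured WT array, while the Sdc4-/- arrays at 12 h overlapped the uninjured ones. Capza2 gave -5.38 (limma adjusted p = 3.97e-05), again lower on 3 of 3 WT arrays. Bright probe sets as a whole were lower on the same WT arrays, with a median of -1.93 for this difference over the 3424 with a mean of at least 6. After the shift by those probe sets the differences were -2.32 for Arpc5 and -3.48 for Capza2, both called. With the control level as a covariate, a setting added after the data were seen, the difference was -6.77 for Capza2 (limma adjusted p = 0.00273) and -3.64 for Arpc5, which was no longer called (limma adjusted p = 0.29).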

How the results depend on the processing

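Counts are called member probe sets of 14. Counts under the alternatives, here and above, are given without the share of all probe sets called in the same fit. They show only how the member calls moved. With only the compared groups in the fit, the count in WT cells fell from 10 to 6 at 12 h, from 4 to 1 at 48 h and, at 48 h against 12 h, from 10 to 5. The study's threshold gave 6 in WT cells at 12 h. Quantile normalization gave 6 there, 2 at 48 h and 2 in Sdc4-/- cells at 48 h against 12 h. All 18 arrays gave 1 and the floor of 4 on the mean gave 2 in WT cells at 48 h. The 75th percentile shift gave 7 in WT cells at 48 h and 2 in Sdc4-/- cells at 12 h. The shift by bright probe sets gave 0 in WT at 48 h, 1 in Sdc4-/- cells in each of the 3 time comparisons (at 48 h against 12 h lower, the others higher), and 10 for the genotype difference at 12 h (4 higher, 6 lower). It also changed the split to 7 higher and 5 lower both for WT 48 h against 12 h and for Sdc4-/- against WT at 12 h, against 9 and 1 and against 8 and 1. The control level as covariate, added after seeing the data, gave 1 in WT at 12 h, 0 at 48 h, 5 between genotypes at 12 h and 1 for the genotype difference. The cause of these moves was not tested.

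With each array left out, the counts ran from 7 to 10 (WT 12 h), 0 to 1 (Sdc4-/- 12 h), 1 to 6 (WT 48 h), 2 to 4 (Sdc4-/- 48 h), 8 to 9 (WT 48 h against 12 h), 4 to 5 (the same in Sdc4-/-), 0 to 1 (uninjured genotypes), 7 to 9 (genotypes at 12 h) and 6 to 8 (genotype difference in the 12 h change), and stayed at 0 for the genotypes and the genotype difference at 48 h. Of 2057 single-gene results under an alternative, 1934 kept their side of the threshold, 89 lost the call and 27 gained it. The remaining 7 changed direction with a call in at least 1 of the fits compared. Differences called in neither fit count among the 1934 whether or not their direction changed. Under the shift by bright probe sets, which moves probe sets at background, Arpc1a came to 1.72 (WT 12 h), -2.0 (WT 48 h against 12 h) and -1.73 (genotypes at 12 h), and Arpc4 to -1.27 and -2.17 in the latter 2. With each array left out, Arpc2 ran from -2.47 (without WT 12 h replicate 3) to 0.92 (without replicate 2) at 12 h, and from -2.07 to 1.32 for the genotype difference with the same arrays left out.

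No pairing by replicate number was seen. Deviations from the group means correlated above 0.1 in 2 of 40 same-numbered pairs of arrays and in 5 of 80 others. In groups of 2 or 3 arrays these deviations depend on each other, so the check cannot exclude pairing. With the replicate block the counts were 8 (WT 12 h), 3 (WT 48 h), 9 (WT 48 h against 12 h), 3 and 4 (Sdc4-/- 48 h against uninjured and 12 h), 9 (genotypes at 12 h), 6 (genotype difference at 12 h) and 0 elsewhere. Probe sets near background limit Arpc1a and Arpc4, for which no reliable level was measured.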

Other observations

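WT uninjured replicate 3, which entered no comparison, read 10.51, 9.30 and 8.84 on the 3 probe sets of Actr3, 10.18 for Arpc2, 6.88 for Arpc5, 10.92 and 5.28 for Capza1 and 8.71 and 5.21 for Capza2 on the sets in the order used above. Of the values named here, those of Arpc5, both sets of Capza2, the second set of Capza1 and the first 2 of Actr3 lay below both other uninjured arrays, and its mean over the 7 genes was 7.61. Its hybridization controls averaged 12.80.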
